A study of Homo sapiens with 5 samples.

Results

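The NF-κB target and chemokine genes described here are NFKBIA, TNFAIP3, RELB, NFKB1, NFKB2, BIRC3, CXCL1, CXCL8, CXCL10 and ICAM1, and their acetylation on lysine 27 of histone H3 (H3K27ac) was followed after interferon beta (IFN-β). The 10 genes were chosen by name, with earlier results of these data known. A peak was assigned to a gene when its center lay within 10 kb of any start site of that gene in GENCODE release 44. By this rule 8 of the 10 genes had a peak, with 14 of the 20087 peaks of the deposited table, and CXCL8 and CXCL10 had none. The data are ChIP-seq of HCT116, a human colorectal carcinoma cell line, in a derivative named HCT116 CMV-osTIR1 RAD21-mAC, which carries a plant auxin receptor and a cohesin subunit fused to a degron. All cells received 0.1% DMSO for 6 h and no auxin is named in the labels. Group IFN-β (2 libraries) then received 1000 unit/ml IFN-β for 1 h, while the control group (2 libraries) received nothing further, and 1 input library served as background. The titles place the control libraries at 0 min and the IFN-β libraries at 60 min, so that the treatment and the additional hour of culture cannot be told apart. The sources used here do not say whether the libraries of a group came from separate cultures.

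NF-κB is a family of dimeric transcription factors held in the cytoplasm by inhibitor proteins until receptors for TNF, IL-1 or microbial products activate the IκB kinases. Its targets include its own inhibitors, its own precursor subunits, survival factors, chemokines and adhesion molecules, so that the pathway is under feedback. Type I interferon signals mainly through another route, whose factors bind interferon-sensitive response elements, and some chemokine and adhesion genes have sites for both systems. H3K27ac marks active promoters and enhancers. The comparison asks how this mark stood at the NF-κB targets after a short IFN-β stimulus, as background to a study of motifs in interferon-responsive regions.

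The values are levels, each the log2 of the mean normalized reads in a peak over the 2 libraries of a group, and a difference is the IFN-β level minus the control level. The levels are group means, so the spread between libraries could not be computed and no test between groups was run here, while the authors' own test columns were not used. Read totals of single libraries were not analysed here. The lowest level in the table, -0.17 in the control group and -0.59 in the IFN-β group, was taken as 1 read in each library. Relative library sizes were then fitted so that most levels below 2 matched whole reads at the 0.01 resolution of the table. Leaving out the lowest level itself, 98.1% of 157 such levels in the control group and 98.4% of 497 in the IFN-β group matched. The sizes were chosen for the most matches, so these shares describe the fit and are no independent check. The fitted steps covered 32 of 217 possible values below 2 in the control group and 49 of 259 in the IFN-β group. With the lowest level of each group taken as 1 read, an approximate counting error (SE) was computed for each difference. It covers the sampling of reads and neither the input nor the variation between cultures. The median difference over all 20087 peaks was -0.69, a 1.61-fold lower level after IFN-β, and a centred difference is a difference minus this median. Summed over all peaks, the normalized reads were 540427 after IFN-β and 876825 in the control group. Whether this general offset arose in the cells or in the preparation or scaling of the libraries was not tested. In the control group the member peaks ranged from 9.19 to 121.1 mean normalized reads per library. As ChIP-seq was made on 500000 cells in bulk, fewer acetylated cells and less acetylation per cell cannot be told apart. Of 12 epithelial marker genes, 9 had a peak within 1 kb of a start site, and the exceptions were VIL1, CDX1 and HNF4A. Of 10 markers of blood, stromal, endothelial, muscle and glial cells, only COL1A1 had such a peak.

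The promoter sequences below are shown because NF-κB and interferon factors bind DNA through short sites of this kind, and because the peaks at NFKB2 and NFKBIA gave extreme values of the set. Each runs 5′ to 3′ on the strand of the gene, from 250 bases before to 50 bases after a RefSeq start site in GRCh38.p14. Capitals mark matches to the NF-κB consensus of 10 positions on either strand and to a pair of GAAA with 2 free bases between them (the core of interferon-sensitive response elements).
NFKB2, chr10:102394328-102394627, plus strand: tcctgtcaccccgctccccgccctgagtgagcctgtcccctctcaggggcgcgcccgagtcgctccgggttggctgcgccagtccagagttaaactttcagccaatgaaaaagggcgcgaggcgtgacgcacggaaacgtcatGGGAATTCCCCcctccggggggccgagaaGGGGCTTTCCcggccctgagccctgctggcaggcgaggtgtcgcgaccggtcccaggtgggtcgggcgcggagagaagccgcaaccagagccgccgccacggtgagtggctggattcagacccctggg
NFKBIA, chr14:35404700-35404999, minus strand: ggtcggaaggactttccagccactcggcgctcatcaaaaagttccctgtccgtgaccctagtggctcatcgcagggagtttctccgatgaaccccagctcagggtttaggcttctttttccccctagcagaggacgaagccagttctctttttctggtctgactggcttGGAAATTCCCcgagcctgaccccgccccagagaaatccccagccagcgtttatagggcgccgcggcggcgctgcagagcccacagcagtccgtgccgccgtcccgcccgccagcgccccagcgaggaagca
TNFAIP3, chr6:137867009-137867308, plus strand: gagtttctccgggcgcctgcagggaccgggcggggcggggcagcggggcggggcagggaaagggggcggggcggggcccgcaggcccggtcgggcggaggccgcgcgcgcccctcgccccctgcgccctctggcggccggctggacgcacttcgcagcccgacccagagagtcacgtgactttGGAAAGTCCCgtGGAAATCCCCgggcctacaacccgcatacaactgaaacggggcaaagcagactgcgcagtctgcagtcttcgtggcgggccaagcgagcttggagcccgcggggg
CXCL1, chr4:73869143-73869442, plus strand: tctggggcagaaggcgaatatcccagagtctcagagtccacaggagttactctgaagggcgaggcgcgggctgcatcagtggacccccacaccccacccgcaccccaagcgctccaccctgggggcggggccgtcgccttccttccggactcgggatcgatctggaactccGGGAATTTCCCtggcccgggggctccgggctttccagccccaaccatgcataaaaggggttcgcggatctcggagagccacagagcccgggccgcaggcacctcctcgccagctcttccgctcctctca
CXCL10, chr4:76023448-76023747, minus strand: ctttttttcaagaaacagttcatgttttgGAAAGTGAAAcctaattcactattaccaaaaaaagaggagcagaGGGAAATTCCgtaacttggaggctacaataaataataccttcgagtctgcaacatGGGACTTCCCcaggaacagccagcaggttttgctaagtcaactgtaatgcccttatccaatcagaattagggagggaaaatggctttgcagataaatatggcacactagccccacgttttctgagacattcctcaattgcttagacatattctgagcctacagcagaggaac

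RefSeq promoters were found for 9 of the 10 genes (all but RELB), and 8 of their 12 promoters, from 7 genes, had an NF-κB consensus match. Over all 35116 RefSeq promoters of the same length 5.91% had a match. The genes were named as NF-κB targets and NFKB1 and NFKB2 gave several promoters each, so these shares are description only. They were not adjusted for GC content. The capitals of the NFKB2 promoter begin 107 and 78 bases before its RefSeq start site, which lies downstream of the gene start used for the peaks. From that gene start they begin 361 and 390 bases into the gene. The RefSeq promoter of NFKB2 at the gene start (chr10:102393860-102394159) had 0 matches. The longer run of NFKB2 is a pair of overlapping matches on opposite strands, as is the run of CXCL1. The matches of TNFAIP3 begin 67 and 55 bases before its start site, and that of NFKBIA begins 81 bases before. CXCL10 was the only one of the 9 genes with the GAAA pair, 221 bases before the start site, a motif present in 3.57% of all promoters, and it also held NF-κB matches 177 and 122 bases before the start site. ICAM1 and CXCL8 had no match to the consensus in these promoters, which says only that these letters are not in the window.

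Of the 14 member peaks, 3 (21.4%) had a higher level after IFN-β than in the control group, compared with 5.93% of all peaks. Relative to the median of the table, 3 peaks (21.4%) were higher by at least 1.5-fold, a centred difference of 0.585 or more, against 8.38% of all peaks. This count was 1 of 8 with only the nearest peak of each gene, 0 of 8 with only the strongest, and 1 of 9 among peaks with a control level of at least 4, where 4% of all peaks were higher. Of the 3 higher peaks, those at PSD and ICAM1 lay within the central 90% of all peaks with a like level. No member peak was lower by the same amount, against 5.43% of all peaks. The 3 higher peaks were the same in both counts, and lay at the start of NFKB2, at the neighboring gene PSD, and at the start of ICAM1. The median difference over the 14 peaks was -0.64 and the median centred difference 0.06, so that the set as a whole stood close to the table. Differences ranged from -1.19 at NFKBIA to 0.31 at PSD. Over all peaks the differences depended on the level, with a median of -0.60 and an SD across peaks of 0.59 in the second decile of mean level, and a median of -0.79 and an SD of 0.35 in the highest decile.

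**Figure D1:**
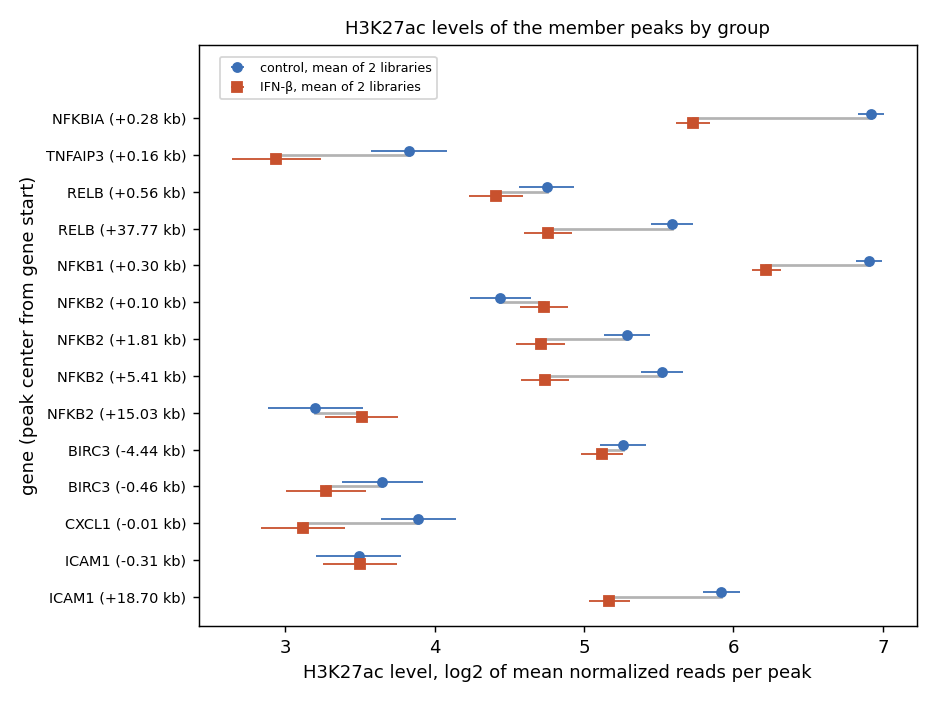
H3K27ac level of each of the 14 member peaks in the control group (blue circles) and after IFN-β (orange squares), as the log2 of mean normalized reads over the 2 libraries of a group. Horizontal bars are the approximate counting error (SE) of each level, and names give the distance of the peak center from the gene start; 11 peaks have the IFN-β level to the left of the control level, and NFKB2 at +0.10 kb, NFKB2 at +15.03 kb and ICAM1 at -0.31 kb do not.

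NFKBIA encodes IκBα, the inhibitor that retains NF-κB in the cytoplasm and is resynthesized as a target of it. Its peak (chromosome 14, 35403970 to 35404970, center in an exon of NFKBIA 279 bp past the gene start) had the highest control level of the set, 6.92, and a level of 5.73 after IFN-β. The difference of -1.19 (counting SE 0.14) was the lowest of the 14, and the centred difference was -0.50. Of all peaks 7.53% had a lower difference, and among the peaks in the same decile of mean level the 5th percentile was -1.10. The value of NFKBIA thus stood below the central 90% of peaks with a like level, without reaching the 1.5-fold threshold. The peak had a GC content of 73.1%, and centring within deciles of GC content gave a centred difference of -0.37. TNFAIP3 encodes A20, a ubiquitin-editing enzyme that restrains signaling to NF-κB. Its peak (chromosome 6, 137866874 to 137867874, center in an exon 160 bp past the gene start and also within the lncRNA gene WAKMAR2) had levels of 3.83 in the control group and 2.94 after IFN-β. These correspond to 14.2 and 7.67 mean normalized reads, and the difference of -0.89 had a counting SE of 0.39. Its centred difference of -0.20 was smaller than that error. Both inhibitor genes thus had differences below the median of the table, that of TNFAIP3 by less than its counting error.

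The members that encode NF-κB subunits are NFKB1, RELB and NFKB2. NFKB1 encodes p105, the precursor of p50, and its peak (chromosome 4, 102501128 to 102502128, center in an exon 298 bp past the gene start) had levels of 6.91 in the control group and 6.22 after IFN-β. Its difference of -0.69 (counting SE 0.13) equaled the median of all peaks. RELB encodes the subunit that pairs with p52 in the non-canonical pathway. The peak at its start (chromosome 19, 45001092 to 45002943, center in an intron of RELB) was 1851 bp wide, and its levels were 4.75 in the control group and 4.41 after IFN-β. Its difference of -0.34 had a counting SE of 0.26 and exceeded that of 82.6% of all peaks. The other RELB peak (chromosome 19, 45038732 to 45039732) was centered 158 bp from the start of CLASRP, a splicing-related gene downstream, with levels of 5.59 and 4.76 and a difference of -0.83.

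NFKB2 encodes p100, the precursor of p52 and an inhibitor in its own right, and had 4 peaks. The peak at the gene start (chromosome 10, 102393714 to 102394714, center in an exon 104 bp past the start) had a level of 4.44 in the control group and 4.73 after IFN-β, or 21.7 and 26.5 mean normalized reads. Its difference was 0.29 (counting SE 0.26), the centred difference 0.98, and 97.4% of all peaks had a lower difference. The 95th percentile of peaks in the same decile of mean level was 0.04. This peak contains the NFKB2 promoter printed above and held 5 NF-κB consensus matches, which included 2 overlapping pairs. Other member peaks held matches too, with 2 in the second NFKB2 peak and 3 in the TNFAIP3 peak, while the fourth NFKB2 peak had no match. The second peak, centered 1.81 kb past the gene start at a downstream start site, had levels of 5.29 and 4.71 and a difference of -0.58 (counting SE 0.22). The third, in an intron 5.41 kb past the gene start and 141 bp from a further annotated transcript start, had levels of 5.52 and 4.74 and a difference of -0.78 (counting SE 0.21). The difference at the gene start was 0.87 above that of the second peak (counting SE 0.34) and 1.07 above that of the third (counting SE 0.34). After IFN-β the levels of these 3 peaks were nearly equal, between 4.71 and 4.74, while in the control group the peak at the gene start was the lowest of them. The fourth peak (chromosome 10, 102408644 to 102409644) was centered in an exon of PSD, an exchange factor for ARF6, 146 bp from a start site of that gene and 8.55 kb from the nearest start site of NFKB2. Its levels were 3.20 and 3.51, only 9.19 and 11.4 mean normalized reads, and its difference of 0.31 (counting SE 0.40) lay below the 95th percentile of 0.39 of peaks with a like level.

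BIRC3 encodes cIAP2, a ubiquitin ligase of the TNF receptor complex and a survival factor, and had 2 peaks. The peak at its promoter (chromosome 11, 102316522 to 102317522, center 462 bp before the gene start) had levels of 3.65 in the control group and 3.27 after IFN-β, and a difference of -0.38 (counting SE 0.38). The peak upstream (chromosome 11, 102312545 to 102313545, center 4.44 kb before the gene start and outside any annotated gene) had levels of 5.26 and 5.12. Its difference of -0.14 (counting SE 0.21) exceeded that of 90.5% of all peaks and the 95th percentile of -0.19 of peaks with a like level. Its centred difference of 0.55 fell just short of the 1.5-fold threshold. This was the only member peak with the GAAA pair, which occurred in 11.6% of all peaks. It held overlapping copies of it, shown in capitals in the 150 bases around them on the plus strand of GRCh38, where the pair reads as TTTC.
BIRC3 upstream, chr11:102312847-102312996: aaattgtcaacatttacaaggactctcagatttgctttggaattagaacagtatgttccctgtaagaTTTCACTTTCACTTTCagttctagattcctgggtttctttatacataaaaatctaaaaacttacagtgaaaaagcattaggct
The upstream peak had a GC content of 36.7%, the lowest of the set, and no match to the NF-κB consensus, whereas the BIRC3 promoter peak had 2 such matches. Relative to the median of peaks in the same decile of GC content, its difference was higher by 0.33.

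The 3 chemokines are ligands that attract leukocytes, CXCL1 and CXCL8 acting on neutrophils and CXCL10 on activated T cells. CXCL1 had 1 peak (chromosome 4, 73868881 to 73869881, center 12 bp before the gene start), with levels of 3.89 in the control group and 3.12 after IFN-β. Its difference of -0.77 (counting SE 0.38) was close to the median of all peaks. CXCL8 (chromosome 4, 73740519 to 73743716) had no peak, and the nearest center was that of the CXCL1 peak, 128.8 kb from its start site. CXCL10 (chromosome 4, 76021118 to 76023497) had none either, and the nearest center lay 32.9 kb away at the start of SDAD1, with a difference of -1.09. The absence of a peak says that the merged table listed none there, and not that the mark was absent. Over the 358.7 kb from CXCL8 to CXCL2, with 10 kb on either side, there were 3 peaks for 9 genes, at CXCL1, CXCL3 and CXCL2. Over the 40.1 kb from CXCL9 to CXCL11 there were 0 peaks for 3 genes. The CXCL10 promoter, with both kinds of site in the sequence above, was thus not among the peaks.

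ICAM1 encodes an adhesion molecule that binds leukocyte integrins. The peak at its start (chromosome 19, 10270283 to 10271283, center 310 bp before the gene start and within the lncRNA gene LIMASI) had levels of 3.49 in the control group and 3.50 after IFN-β, equal to 11.2 and 11.3 mean normalized reads. The difference of 0.01 (counting SE 0.38) exceeded that of 94.1% of all peaks, with a centred difference of 0.70. Peaks with a like level had a 95th percentile of 0.39, and centring within deciles of control level lowered the centred difference to 0.58, under the threshold of 0.585. The peak held 1 match to the NF-κB consensus. The other ICAM1 peak (chromosome 19, 10289288 to 10290288) was centered 164 bp from a start site of ICAM5, a neuronal adhesion molecule, with levels of 5.92 and 5.17 and a difference of -0.75 (counting SE 0.19). The difference at the ICAM1 start was 0.76 above it (counting SE 0.42).

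**Figure D2:**
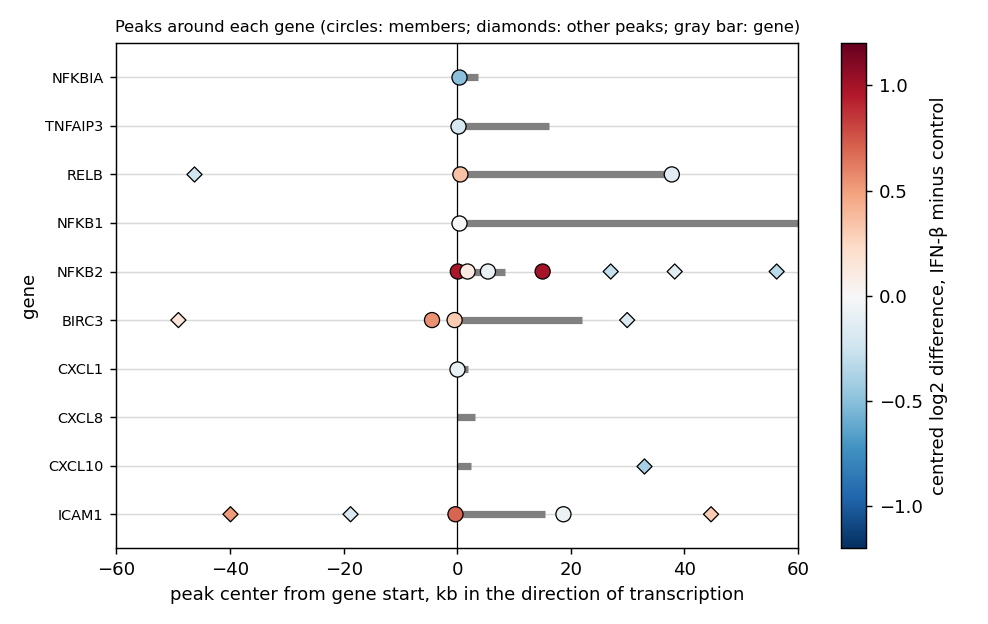
Peaks around the start of each gene, in kb along the direction of transcription, with the gene as a gray bar. Color gives the centred log2 difference (IFN-β minus control, minus the median of all peaks); circles are the 14 member peaks and diamonds other peaks, and the darkest red circles are NFKB2 at 0.10 and 15.03 kb, while CXCL8 and CXCL10 have no circle.

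In the control group, the levels per kb of peak at the gene starts covered a wide range. NFKBIA (6.92, counting SE 0.09) and NFKB1 (6.91, counting SE 0.09) led and did not differ beyond counting error. The gene-start peaks of CXCL1 (3.89), RELB (3.86), TNFAIP3 (3.83), BIRC3 (3.65) and ICAM1 (3.49) lay within 0.40 of each other. Counting SEs of these single levels were between 0.19 and 0.29, so the order of these peaks was not resolved. Of the 14 peaks, 3 were centered nearer to the start of another protein-coding gene (CLASRP, PSD and ICAM5). An NF-κB consensus match was present in 8 of the 14 peaks (57.1%), within 500 bp of the center, and in 20.3% of all peaks. As this motif is rich in G and C, its share depends on composition: among peaks with a GC content of at least 60%, it was present in 7 of 11 member peaks (63.6%) and in 27.9% of all peaks. The AP-1 motif TGANTCA was found in 4 of the 14 peaks (33.4% of all peaks) and the TATA box letters TATAAA in 4 (28.6%), each searched on both strands. Over all peaks the median difference was -0.72 with the NF-κB match and -0.68 without it, and it was -0.58 with the GAAA pair and -0.70 without it. A like shift was seen for TGANTCA (-0.60 with it and -0.73 without) and for TATAAA (-0.59 and -0.72). The shift was thus not particular to the GAAA pair, and these medians were not adjusted for sequence composition.

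**Figure D3:**
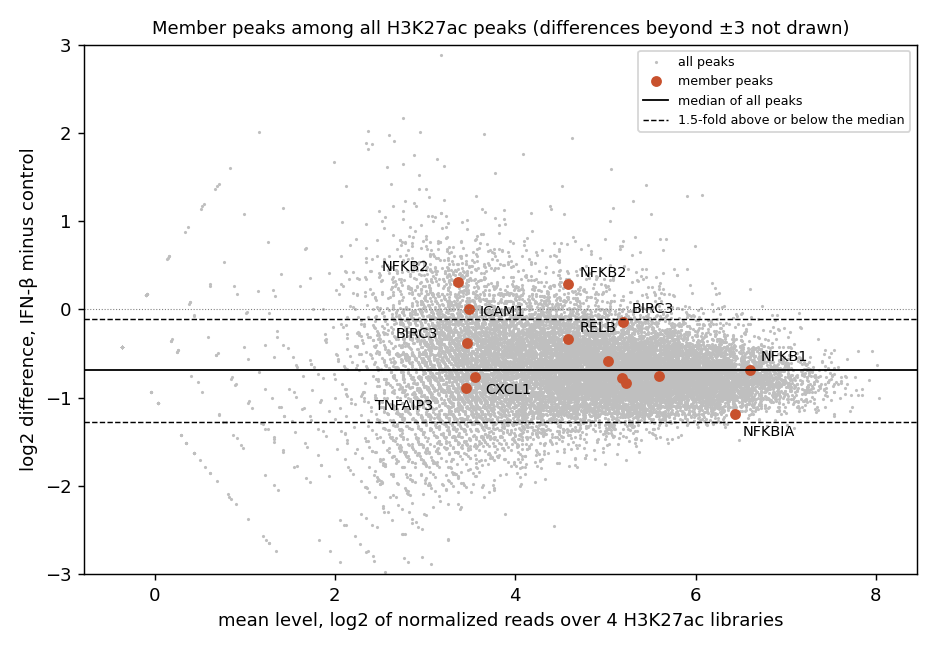
Log2 difference in H3K27ac (IFN-β minus control) against the mean level over the 4 H3K27ac libraries, for all peaks (gray) and the 14 member peaks (orange). The solid line is the median of all peaks at -0.69 and dashed lines lie 1.5-fold above and below it; NFKB2 (both labeled points) and ICAM1 lie above the upper line and NFKBIA close to the lower line.

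The other genes of the pathway were taken from a list of 94 genes by role that contains the members. Of the 84 genes other than members, 62 had a peak, with 113 peaks in all and a median difference of -0.68. Of these peaks 10 (8.85%) were higher and 5 (4.42%) lower by 1.5-fold than the median of the table. This was close to the 8.38% and 5.43% of all peaks. The Rel subunits (5 genes, 10 peaks, members included) had a median difference of -0.61, and the inhibitors and feedback genes (12 of 13 genes with a peak, 19 peaks) of -0.77. Among the inhibitors, NFKBIE, an IκB, had the lowest difference at -1.51 (counting SE 0.30), and NFKBIZ, a nuclear IκB-like protein, the highest at 0.01 (counting SE 0.21). Another NFKBIZ peak, centered 29 bp from a start site, had -0.77. For the kinases (10 genes, 16 peaks) the median was -0.63, from -1.30 at TAB1, a subunit of the TAK1 complex, to -0.09 at MAP3K14, the kinase of the non-canonical pathway. The MAP3K14 value came from a peak 4278 bp from a start site, while the peak at the MAP3K14 start had -0.23. The receptors (7 of 10 genes, 14 peaks) also had a median of -0.63, between -1.33 at IL1R1 and -0.11 at CD40.

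Among the adaptors and ligases (12 of 13 genes, 22 peaks) the median was -0.80. The highest difference there, 1.29 (counting SE 0.19), belonged to a peak within 10 kb of RNF31, a subunit of the linear ubiquitin ligase, but its center was closest to the start of IRF9, the interferon factor, which is on the interferon list. The lowest, -1.70 at a peak assigned to TRADD, was centered closest to FBXL8. Of 15 chemokine genes 5 had a peak (6 peaks, median -0.80), and CCL20, a chemokine of epithelia, had the highest difference of these at 0.53 (counting SE 0.40, levels of 3.12 and 3.65), while CXCL2 had the lowest at -1.09. Of 9 cytokine genes 3 had a peak (4 peaks, median -0.70, from -1.15 at CSF1 to -0.31 at LIF). With so few peaks the median moved between -1.04 and -0.45 under other peak choices. The CCL20 and LIF peaks were centered 2768 and 7619 bp from a start site of their gene. The adhesion genes (3 of 5 genes, 7 peaks) had a median of -0.58, from -0.97 at CD44 to 0.01 at ICAM1. The other targets (13 of 14 genes, 29 peaks) had a median of -0.68, from -1.07 at TNFAIP8 to 0.11 at PLAU. The PLAU value came from a peak 9698 bp from a PLAU start site, while the peak at the PLAU start had -0.87.

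For reference, a list of 24 interferon-stimulated genes had 22 genes with a peak, 29 peaks and a median difference of 0.32. This list too was chosen with earlier results of these data known, so it is not an independent scale. Of the 29 peaks 22 (75.9%) were higher by 1.5-fold than the median of the table and 0 were lower, against 8.38% and 5.43% of all peaks. The 3 highest were at IFI6 (1.94), IFIT1 (1.59) and ISG15 (1.30), genes of the antiviral response. Immediate early genes, another set of rapidly induced genes, had 41 peaks for 20 genes and a median of -0.63. Of these peaks 5 (12.2%) were higher and 1 (2.44%) lower, against the same shares of all peaks. The highest was EGR2 at 0.41, followed by FOSB and JUNB at -0.03 each. Another FOSB peak, centered 592 bp from a start site, had -0.62. The JUNB value came from a peak 7647 bp from a JUNB start site and closest to HOOK2, while the peak at the JUNB start had -0.58. These lists are compared by counts and medians alone, and the differences between lists were not tested.

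**Figure D4:**
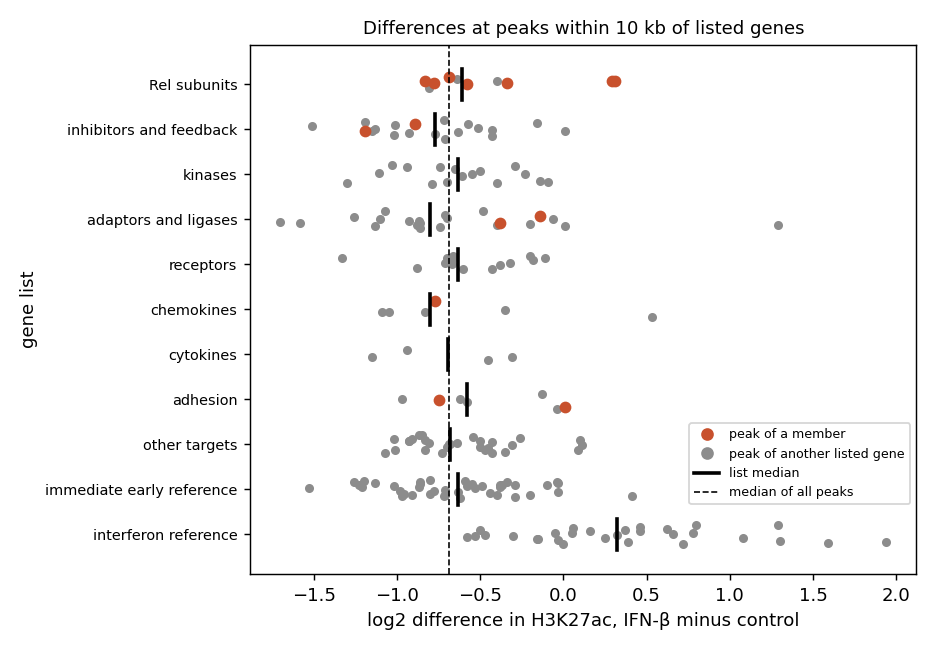
Log2 difference in H3K27ac (IFN-β minus control) of every peak within 10 kb of a listed gene, by list, with members in orange, other genes in gray and the list median as a black bar. The dashed line is the median of all peaks at -0.69; the bars of the pathway roles stand between -0.80 and -0.58, and that of the interferon list at 0.32.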

How the data were processed

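The authors sequenced H3K27ac ChIP-seq and input libraries, trimmed reads with fastp 0.19.3, aligned them to GRCh38 with Bowtie2, called peaks per library with MACS2 against the input, and merged and counted them with DiffBind and DESeq2, as named in the paper and in the submitters' processing notes. The deposited log2 columns hold the mean normalized read count per peak over each group. The columns with the authors' fold change, p-values and FDR were not used. The 39 sequence names matched GRCh38. Differences, medians and motif matches (center ± 500 bp) were computed in Python 3.11.15 with numpy 2.4.6 and pandas 2.3.3, and figures with matplotlib 3.10.9. Error was approximated from read counting as described. Named are the members, the highest and lowest gene of each pathway role, and the 3 highest of each reference list. A further motif that was searched is not reported here. The members and lists were chosen with earlier results of these data known. Alternatives changed the distance, start sites, peak choice, signal filter, centring and threshold.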

Additional observations from a re-analysis of the deposited data

How the results depend on the processing

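Of the values recomputed for the members under the alternatives, 60 stayed within 1.5 times (counts) or 0.1 (log2 medians) of those reported, 15 moved further and 1 changed sign. The number of genes with a peak was 8 in each setting except 6 with a control level of at least 4. Distances of 2, 5 or 20 kb gave 2 of 10, 2 of 11 and 3 of 16 peaks higher, against 8.38% of all peaks. Using only the nearest peak of each gene left 8 peaks, of which 1 was above 0 and 1 higher than the median by 1.5-fold. Over all peaks these shares were 5.93% and 8.38%. The strongest peak of each gene gave 8 peaks, a median difference of -0.78, 0 above 0 and 0 higher. With a control level of at least 4 there were 9 peaks, 1 above 0 and 1 higher (4% of all such peaks). Without centring 0 peaks were higher and 7 lower, where 61.8% of all peaks were lower, and the median was -0.64 in place of 0.06. A threshold of 0.32 on the log2 scale gave 5 higher and 1 lower, against 18.5% and 16.6% of all peaks. A threshold of 2-fold gave 1 higher, the peak at PSD, against 2.51% of all peaks. The peak at the NFKB2 start, with a centred difference of 0.98, fell just short of 2-fold. Of the list medians 32 stayed within 0.1 and 7 moved further, namely cytokines (-1.04 at 5 kb, -0.94 with the nearest peak, -0.45 at a control level of at least 4), adhesion (-0.36 at 5 kb), chemokines (-0.94 at a control level of at least 4) and interferon-stimulated genes (0.42 at 5 kb, 0.46 with the nearest peak). No paired analysis was possible because the table holds group means and no library values, and leaving out replicates was not run for the same reason. Low read numbers limit the peaks at PSD, ICAM1, CXCL1, TNFAIP3 and the BIRC3 promoter, whose differences had counting SEs between 0.38 and 0.40.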

Other observations

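Outside the 10 kb rule, the nearest excluded peak was that at the start of BIRC2, the paralog next to BIRC3, 10.9 kb from a BIRC3 start site, with levels of 6.16 in the control group and 5.29 after IFN-β and a difference of -0.87 (counting SE 0.17). A peak 70.3 kb from the nearest NFKB1 start site had a difference of -0.13 (counting SE 0.19), compared with -0.69 at the NFKB1 promoter, and no other peak lay within 100 kb of the NFKB1 start sites. Within 100 kb of RELB there were 5 further peaks with a median difference of -0.92, of which that closest to APOC1 had the highest value, 0.54 (counting SE 0.38). The 5 further peaks around NFKB2 had differences between -1.01 and -0.63.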
